A study of Sus scrofa with 35 samples.

Results

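Keratins 8, 18 and 19, annexins A1 and A2, the cornified-envelope enzymes PADI3 and TGM1 and the ion-transport regulators FXYD3 and FXYD4 were followed across 6 groups of pig libraries. Keratin 7 (KRT7) was looked for as well. The 10 symbols were chosen because several of them were among the largest changes in these same tables, so their values are given as a description, with standard errors and overlaps but with no test. Of the 10, 9 were present in at least 1 of the 4 deposited tables, out of 14673 gene symbols present in any of them. KRT7 was absent from all 4 tables and has no value here.

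The pig (Sus scrofa) cells were expanded potential stem cells (pEPSCs), cultured cells of embryonic origin that the study uses to follow the passage from totipotency to pluripotency. Their 12 bulk RNA libraries form 4 groups of 3: OTX2 overexpression, OTX2 knockout, LEUTX overexpression and wild type. The 6 libraries of 4-cell embryos form groups of 3 with OTX2 overexpression and of 3 wild-type embryos, each library holding 10 pooled zona-free embryos prepared by a modified Smart-seq2 protocol, per the labels. Both manipulated genes encode homeobox transcription factors: LEUTX is expressed when the embryonic genome is switched on, and OTX2 in the epiblast and later the anterior brain. In the tables the knockout columns are numbered 1, 3 and 4 behind a shared prefix that may name a single line, and the labels do not explain it. The labels do not name the vector or promoter of either overexpression or the OTX2 allele of the knockout. They do not say whether the libraries of a group came from separate cultures or lines, so every p-value below measures only the spread between these libraries.

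Keratins are the intermediate filament proteins of epithelia. A type II keratin such as keratin 8 pairs with a type I keratin such as keratin 18 or 19, and this simple-epithelial set is the first to appear in the mammalian embryo, in the trophectoderm. Annexins bind membrane phospholipids when calcium is present: annexin A1 is known for its anti-inflammatory action and annexin A2 for a complex with the S100 protein S100A10 at the cell cortex. In the outer epidermis the transglutaminase TGM1 cross-links proteins into the cornified envelope, while peptidyl arginine deiminases such as PADI3, best known from the hair follicle, convert arginine residues of structural proteins to citrulline. FXYD proteins are small single-pass membrane proteins that associate with the Na,K-ATPase and adjust its activity.

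Expression is given in TPM, a relative abundance corrected for transcript length in which each library sums to nearly the same total, as the authors computed it. Each table covers the libraries of 1 comparison, and the lowest mean over its 6 libraries was 1.00 TPM, so a symbol that is missing may have been left out for a low mean. All 3 pEPSC tables carry the same wild-type values, so those comparisons share their controls. The targeted genes moved with the labels. OTX2 had 9758, 8974 and 10819 TPM in OTX2-overexpressing pEPSCs, against 258, 252 and 260.4 TPM in wild-type pEPSCs. In OTX2-knockout pEPSCs it had 99.5, 130.1 and 114 TPM, so its transcript was lower there but remained. LEUTX-overexpressing cells had 3171, 3187 and 3073 TPM of LEUTX, which was listed at 0 in the wild-type pEPSC libraries, and 0.131, 0.294 and 0.209 TPM of OTX2. OTX2-overexpressing embryos had 8276, 9001 and 10565 TPM of OTX2, against 327, 283 and 321 TPM in wild-type embryos. Of the knockout libraries, library 1 stood apart, with 20.3% of its TPM in 13 mitochondrial genes against 9.22% and 9.34% in libraries 3 and 4, so the members' differences in the knockout, and those of the related genes named further on, are also given without it. Wild-type pEPSCs held 13.5% to 14.7% of TPM in these genes, so knockout libraries 3 and 4 lay below wild type and library 1 above. Leaving out library 1 thus does not make this share equal. OTX2-overexpressing pEPSCs were also lower, at 8.17% to 9.12%. In these bulk samples fewer cells of a type and less RNA per cell cannot be told apart.

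The simple-epithelial keratins stood highest in the OTX2 knockout and lowest under LEUTX overexpression. KRT8 (gene 100152077, chr5:18172423-18180277 in the RefSeq annotation of Sscrofa11.1) had 3278, 4285 and 4839 TPM in the 3 OTX2-knockout libraries, against 1132, 1189 and 1154 TPM in wild type. Its partner KRT18 (gene 100126286, chr5:18217686-18221432) had 2427, 2545 and 2868 TPM in the knockout, against 527, 558 and 523 TPM in wild type. Every knockout library was above every wild-type library for both genes, and by mean level they stood 18th and 43rd of the 12299 genes of that table, against 130th and 258th in wild type. On the log2(TPM + 1) scale used for all differences here, the change was 1.82 ± 0.135 (SE, n = 3 each) for KRT8 and 2.28 ± 0.0788 for KRT18. Without knockout library 1 these differences were 1.97 and 2.33. KRT19 (gene 100515339, chr12:21115453-21119115), the type I keratin of ducts and other simple epithelia, had 438, 443 and 564 TPM in the knockout, against 298, 291 and 303 TPM in wild type. Its groups did not overlap either, but the difference of 0.68 ± 0.110 (0.75 without library 1) was the smallest of the 3 keratins.

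**Figure D1:**
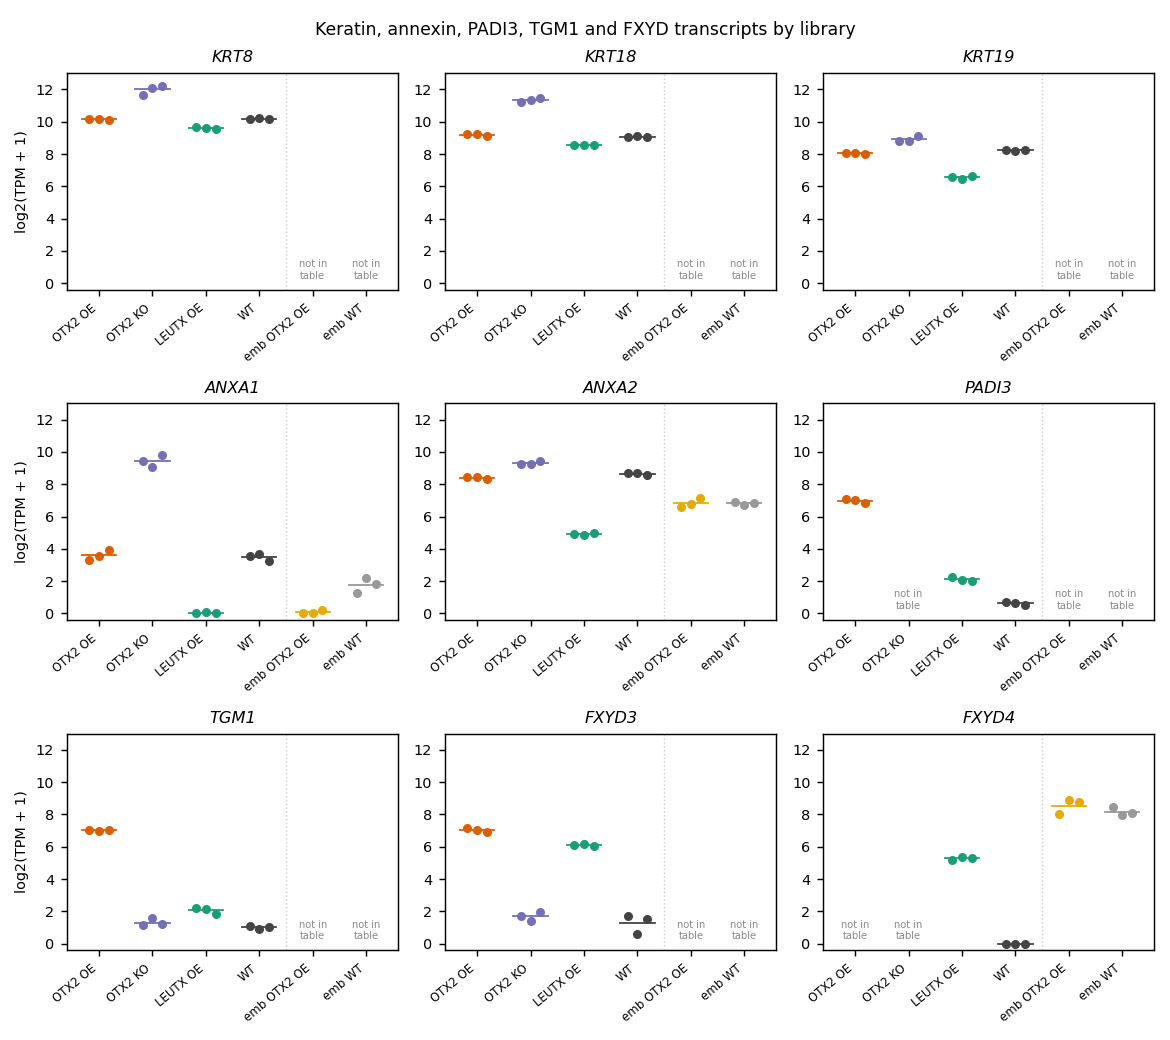
Each panel plots log2(TPM + 1) of 1 gene in every library (points) of the 6 groups, with the group mean as a line; emb marks 4-cell embryos and "not in table" a gene absent from that group's deposited table. KRT8, KRT18, KRT19, ANXA1 and ANXA2 are highest in the OTX2 knockout, PADI3, TGM1 and FXYD3 in OTX2-overexpressing pEPSCs, and FXYD4 in the embryos.

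Under LEUTX overexpression the 3 keratins were all lower, and KRT19 by the most. KRT8 had 805, 781 and 751 TPM in LEUTX-overexpressing libraries, a difference of -0.57 ± 0.0341 from wild type, and KRT18 had 372, 372 and 379 TPM, a difference of -0.52 ± 0.0336. KRT19 had 92.7, 88.0 and 97.9 TPM, a difference of -1.67 ± 0.0444. None of these libraries reached the lowest wild-type library of the same gene. With OTX2 overexpression the pair overlapped wild type: KRT8 had 1148, 1148 and 1096 TPM (-0.04 ± 0.0354) and KRT18 had 597, 604 and 544 TPM (0.12 ± 0.0487), 2 of them above the highest wild-type library. KRT19 was slightly lower in every OTX2-overexpressing library, with 266, 271 and 252 TPM and a difference of -0.18 ± 0.0436. For both KRT8 and KRT18 the knockout had the highest mean and LEUTX overexpression the lowest; between them OTX2 overexpression and wild type overlapped, with wild type higher for KRT8 and lower for KRT18. For KRT19 all 4 groups were apart.

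KRT8 and KRT18 lie 37408 bases apart in the pig annotation, with 1 annotated gene between them, and their levels moved almost together. Across the 12 pEPSC libraries the Pearson correlation of their log2(TPM + 1) values was 0.994, a description over libraries that fall into 4 groups and share the wild-type libraries. Among 11157 genes compared, KRT18 was the gene most like KRT8, and KRT8 the gene most like KRT18. KRT8 exceeded KRT18 in every library, but not by a constant factor. The ratio of KRT8 to KRT18 TPM was 1.35, 1.68 and 1.69 in the knockout libraries, 1.92, 1.90 and 2.02 under OTX2 overexpression, 2.17, 2.097 and 1.98 under LEUTX overexpression and 2.15, 2.13 and 2.21 in wild type. The knockout ratios were all below those of the other groups, so KRT18 gained more than KRT8 there. Against KRT19, KRT18 stood 5.46 ± 0.340 times higher in the knockout, 4.04 ± 0.179 times under LEUTX overexpression, 2.21 ± 0.0460 times under OTX2 overexpression and 1.80 ± 0.0999 times in wild type (SD, n = 3 each), so the share of KRT19 among the type I partners was smallest in the knockout. KRT8, KRT18 and ANXA2 have processed pseudogenes in the human genome, and the sources used here do not give how reads that match several places were counted, so their absolute levels are uncertain to that extent.

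**Figure D2:**
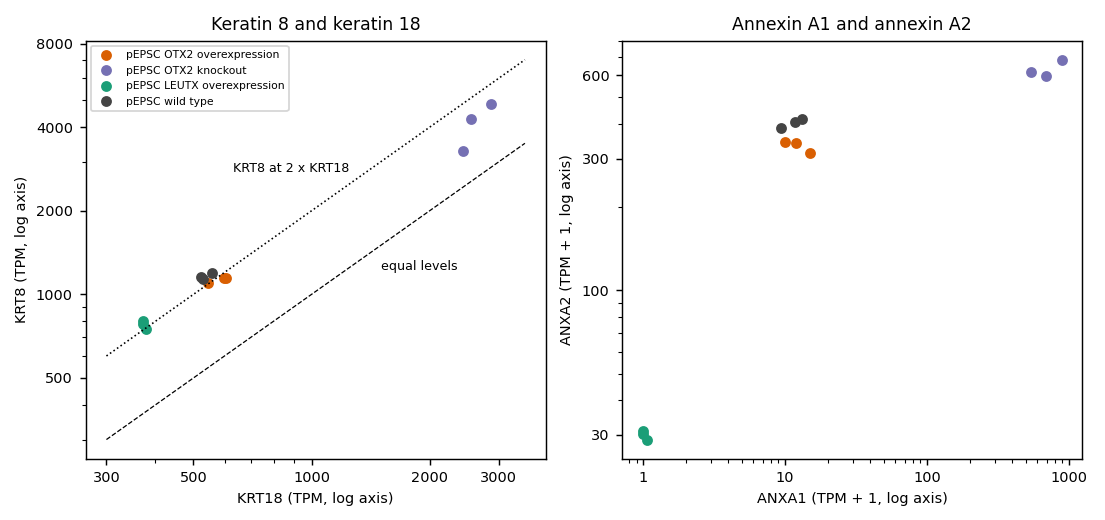
Left, KRT8 against KRT18 in TPM (both axes logarithmic) for the 12 pEPSC libraries, with lines where both are equal and where KRT8 is at 2 times KRT18; right, ANXA2 against ANXA1 in TPM + 1 (both axes logarithmic). The OTX2-knockout libraries lie at the upper right of both panels and the LEUTX-overexpressing libraries at the lower left. On the left the knockout falls furthest below the upper line. OTX2-overexpressing libraries 1 and 2 and LEUTX-overexpressing library 3 also lie below it.

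Markers that could point to other cells moved with some of these differences. Of 12 trophoblast markers, 4 were in the knockout table. In order of size they summed to 292, 462 and 465 TPM in the knockout libraries, against 409, 433 and 451 TPM in wild type. All but the lowest knockout sum thus lay above every wild-type sum. Under LEUTX overexpression, where the keratins were lowest, 3 of these markers summed to 692 to 729.7 TPM, against 408 to 449.6 TPM in wild type. CDX2, GATA2, GATA3, ELF5 and HAND1 were in none of the pEPSC tables. Of 12 fibroblast and mesenchyme markers, 7 were in that table and summed to 209 to 288 TPM in the knockout, against 81.7 to 92.7 TPM in wild type. Under LEUTX overexpression the mesenchymal sum was 15.6 to 19.2 TPM, over 7 markers, against 81.3 to 92.4 TPM in wild type. Of 12 keratinocyte markers, KRT5, KRT14, IVL and FLG were absent from every table, and the 2 or 3 that were present summed to 24.3 to 48.6 TPM in the knockout, 13.9 to 15.96 TPM under OTX2 overexpression and 6.96 to 8.42 TPM under LEUTX overexpression, against 5.69 to 9.15 TPM in wild type for the markers of the OTX2 overexpression table. Amnion and surface ectoderm markers, of which 2 or 3 of 12 were present, summed to 8.10 to 13.6 TPM in the knockout and 129.7 to 136 TPM under LEUTX overexpression, against 40.8 to 43.9 TPM in wild type. Under OTX2 overexpression, where PADI3, TGM1 and FXYD3 were highest, 8 mesenchymal markers summed to 152 to 157 TPM, against 82.6 to 93.3 TPM in wild type. There 4 trophoblast markers summed to 319.5 to 325.7 TPM, against 409 to 451 TPM in wild type. The amnion and surface ectoderm sum was 36.8 to 41.3 TPM over 3 markers, against 41.5 to 43.9 TPM in wild type. For 7 of 10 neuroectoderm markers the sum was 84.2 to 102.9 TPM, which overlapped the 95.9 to 98.1 TPM of wild type. With OTX2 overexpression 6 of 10 hypoblast and endoderm markers summed to 222 to 238 TPM, against 85.1 to 91.1 TPM in wild type. The hypoblast and endoderm sum was 28.7 to 61.8 TPM over 4 markers in the knockout and 56.4 to 63.3 TPM over 3 markers under LEUTX overexpression, against 84.9 to 91.0 TPM in wild type for either set. Neuroectoderm markers were lower than in wild type in both of these groups, at 37.0 to 49.2 TPM in the knockout and 18.9 to 20.3 TPM under LEUTX overexpression, against 94.4 to 97.0 TPM in wild type for 3 of 10 markers. The part of such cells in the differences of the members was not tested. Pluripotency markers stayed the most abundant of the lists in every pEPSC group. They summed to 2224 to 2473 TPM under OTX2 overexpression and, in order of size, to 2486, 4009 and 4145 TPM in the knockout libraries. The sums were 2917 to 2994 TPM under LEUTX overexpression and 3826 to 4081 TPM in wild type.

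ANXA1 was far above wild type in the knockout, and both annexins were far below it with LEUTX overexpression. ANXA1 (gene 396942, chr1:226414200-226431963) had 696, 538 and 888 TPM in the OTX2 knockout, against 10.8, 12.1 and 8.42 TPM in wild type. This difference of 5.94 ± 0.207 was the largest increase of the 12255 genes tested in that comparison, and it was 5.93 without knockout library 1. With LEUTX overexpression ANXA1 was listed at 0 in 2 libraries and had 0.0656 TPM in the third, so that almost no ANXA1 transcript was left and the fitted difference of -3.47 ± 0.136 rests on the pseudocount. OTX2 overexpression gave 9.05, 10.9 and 14.1 TPM, which overlapped wild type (0.11 ± 0.162).

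ANXA2 (gene 406192, chr1:111588721-111635064) lies on the same chromosome as ANXA1 but far from it. It had 29.1, 27.8 and 29.9 TPM in LEUTX-overexpressing libraries, against 406, 415 and 386 TPM in wild type, a difference of -3.75 ± 0.0451 that was the 14th lowest of the 12570 genes tested. Its mean level in that table stood 4972nd with LEUTX overexpression and 348th in wild type. In the knockout it had 596, 617 and 683 TPM (0.65 ± 0.0785, and 0.69 without library 1), above every wild-type library, and under OTX2 overexpression 345, 341 and 314 TPM (-0.27 ± 0.0485), below every wild-type library. The ratio of ANXA2 to ANXA1 showed how the pair changed: 0.857, 1.15 and 0.769 in the knockout libraries, against 37.7, 34.3 and 45.8 in wild type. The annexin A1 transcript was therefore as abundant as annexin A2 in the knockout, while ANXA2 exceeded it in every library of the other 3 pEPSC groups.

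S100A10, the partner of annexin A2, was higher where ANXA2 was lower under both overexpressions, and higher with it in the knockout. It rose under LEUTX overexpression, to 182, 153 and 186 TPM against 119, 119.7 and 146 TPM in wild type (log2 fold change 0.44, adjusted p = 0.00221, limma with Benjamini-Hochberg adjustment over all genes tested, as for every adjusted p here). It also rose under OTX2 overexpression, to 189, 161 and 199 TPM (log2 fold change 0.51, adjusted p = 0.000673), and in the knockout, to 297, 250.0 and 246 TPM (log2 fold change 1.04, adjusted p = 0.00151; log2 fold change 0.96 without library 1). The ratio of ANXA2 to S100A10 TPM was 0.167 ± 0.0123 with LEUTX overexpression, 2.42 ± 0.384 in the knockout, 1.84 ± 0.272 with OTX2 overexpression and 3.18 ± 0.457 in wild type (SD, n = 3 each). The overexpression values for S100A10 were chosen for mention after they were seen.

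PADI3 and TGM1, at about 1 TPM or less in wild-type pEPSCs, were among the most increased transcripts under OTX2 overexpression. PADI3 (gene 100524379, chr6:75874219-75910213) had 132, 126 and 112 TPM in OTX2-overexpressing libraries, against 0.638, 0.602 and 0.425 TPM in wild type. TGM1 (gene 100156489, chr7:75030123-75045157) had 130.2, 127 and 129.7 TPM, against 1.17, 0.899 and 1.03 TPM in wild type. The differences, 6.32 ± 0.0969 and 6.00 ± 0.0822, were the largest and the third largest increases of 13272 genes tested, and both enzymes had reached a like level, with a ratio of PADI3 to TGM1 of 0.958 ± 0.0809 (SD, n = 3). Under LEUTX overexpression the same enzymes were higher than wild type by far less, PADI3 at 3.75, 3.26 and 3.03 TPM (1.48 ± 0.119) and TGM1 at 3.54, 3.36 and 2.62 TPM (1.04 ± 0.125). In the knockout TGM1 had 1.20, 1.95 and 1.29 TPM (0.28 ± 0.158, and 0.36 without library 1), narrowly above the wild-type libraries, and PADI3 was absent from that table. PADI3 entered both comparisons through the overexpressing libraries alone, since no wild-type library reached 1 TPM.

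FXYD3 was far above wild type with either factor overexpressed, and FXYD4 was detected in pEPSCs with LEUTX overexpression. FXYD3 (gene 397413, chr6:44647771-44654377), a regulator found in gut and other epithelia, had 143, 131 and 121 TPM with OTX2 overexpression, 68.2, 70.7 and 64.0 TPM with LEUTX overexpression and 2.21, 0.505 and 1.86 TPM in wild type. Its difference from wild type was 5.78 ± 0.258 with OTX2 and 4.84 ± 0.252 with LEUTX, the 6th and the 7th largest increases of their comparisons. In the knockout it had 2.28, 1.69 and 2.94 TPM (0.44 ± 0.306, and the same 0.44 without library 1) and overlapped wild type. FXYD4 (gene 100511475, chr14:61633355-61637733), known from kidney and colon as a channel-inducing factor, had 34.9, 40.9 and 38.9 TPM with LEUTX overexpression against 0 TPM listed for each of the 3 wild-type libraries, so no fold is given. It was absent from the OTX2 overexpression and knockout tables and has no value there. The ratio of FXYD3 to TGM1 TPM differs between the overexpressions: 21.6 on average with LEUTX and 1.02 with OTX2.

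**Figure D3:**
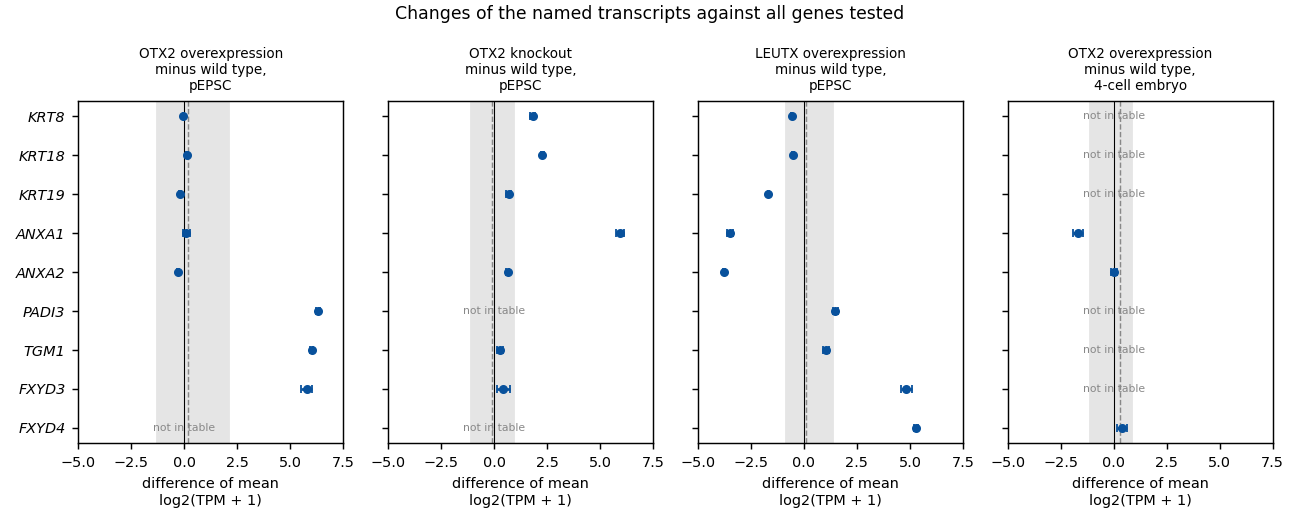
Points show the difference of mean log2(TPM + 1) from wild type for each gene, with its SE as a bar, in the 4 comparisons; the grey band spans the 5th to the 95th percentile of all genes tested and the dashed line their median. PADI3, TGM1 and FXYD3 lie to the right of the band with OTX2 overexpression in pEPSCs, and ANXA1, KRT8 and KRT18 with the OTX2 knockout. With LEUTX overexpression PADI3, FXYD3 and FXYD4 lie to its right and KRT19, ANXA1 and ANXA2 to its left. In embryos ANXA1 lies to its left.

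Read against all genes, the members' own counts say little, because they were chosen on these contrasts and because these comparisons move much of the transcriptome. With OTX2 overexpression 3 of the 8 members tested were above wild type in all libraries and 2 below, while 49.1% of all genes tested were above and 34.2% below. In the knockout 6 of 7 were above and none below, with 20.3% and 35.3% of all genes. With LEUTX overexpression 4 of 9 were above and 5 below, with 43.2% and 30.3% of all genes. ANXA1 and FXYD4, like PADI3, passed the filter on low values there through 1 group alone and so had to differ.

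In 4-cell embryos 3 members were present, and ANXA1 was the one whose groups were apart. It had 0, 0 and 0.144 TPM in OTX2-overexpressing embryos, against 1.39, 3.57 and 2.62 TPM in wild-type embryos, a difference of -1.70 ± 0.235 that it could show through the wild-type libraries alone. ANXA2 had 95.2, 111 and 139 TPM in OTX2-overexpressing embryos, against 121, 104 and 112 TPM in wild-type embryos (0.02 ± 0.158), and its groups overlapped. FXYD4 was an abundant transcript of the embryo, with 256, 469 and 437 TPM in OTX2-overexpressing and 345, 246 and 273 TPM in wild-type embryos, the 204th and 235th highest means of 8643 genes. Its difference of 0.39 ± 0.240 lay within overlapping groups. Of these members 1 was thus below wild type in all libraries and none above, with 10.2% and 38.9% of all genes tested. LEUTX itself was lower in OTX2-overexpressing embryos, at 80.8, 13.3 and 12.4 TPM against 346, 538 and 631 TPM (log2 fold change -4.29, adjusted p = 0.00323). A link between LEUTX and FXYD4 levels in embryos was not tested. The higher FXYD4 value in embryos than in LEUTX-overexpressing cells sets levels across tables, between libraries of unlike composition. The 13 mitochondrial genes held 41.4% to 44.0% of TPM in OTX2-overexpressing embryos and 46.3% to 46.8% in wild-type embryos. With LEUTX overexpression in pEPSCs they held 14.8% to 14.9%. No keratin was in the embryo table.

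Position on the chromosome gave a further view of the members. The nearest genes present in the same table were named here after their values were seen. Those given with mean levels below differed less than the member beside them, except TNS2 with LEUTX overexpression (-0.78, against -0.52 for KRT18). Other nearest genes also differed more than the member. With OTX2 overexpression these included KRT82 beside KRT8 (2.90, against -0.04), LOC100515685 beside KRT19 (1.58, against -0.18) and ICE2 beside ANXA2 (-0.62, against -0.27). In the knockout ICE2 differed by -0.93, against 0.65 for ANXA2. Near the keratins, TNS2, 84055 bases after KRT18, averaged 6.48 TPM in the knockout and 1.24 TPM with LEUTX overexpression, against 2.87 TPM in wild type, so it differed in the same directions as KRT8 and KRT18 at a low level. SNRPE, 146719 bases after ANXA2, averaged 311 TPM with LEUTX overexpression against 322 TPM in wild type, a difference of -0.05 beside the -3.75 of ANXA2. That neighbour did not share the decrease. PADI1, 2289 bases from PADI3 in the PADI gene cluster of chromosome 6, averaged 3.61 TPM with OTX2 overexpression against 0.761 TPM in wild type. RABGGTA, 1893 bases from TGM1, averaged 32.8 TPM with OTX2 overexpression against 20.5 TPM in wild type, a difference of 0.67 beside the 6.00 of TGM1. LGI4, 1243 bases after FXYD3, averaged 4.67 TPM with OTX2 overexpression and 2.26 TPM with LEUTX overexpression against 0.729 TPM in wild type. These neighbours of PADI3, TGM1 and FXYD3 were thus higher with OTX2 overexpression as well, each at a lower level than the member. PADI1 was under 1 TPM in every wild-type library and passed the filter through the overexpressing libraries alone, so it could only be higher. KRT82, listed at 0 in wild type, could also only be higher. LGI4, at 0.729 TPM on average in wild type, had little room to be lower. On the other side of PADI3, RCC2 was lower, averaging 193 TPM against 300 TPM in wild type (-0.64). TINF2, on the other side of TGM1, and HPN, on that of FXYD3, differed by 0.13 and 0.22. The median difference over all genes tested was 0.20, and 49.1% of them were above wild type in all libraries.

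By Pearson correlation of log2(TPM + 1) over the 12 pEPSC libraries, the members that were in all 3 pEPSC tables had the following nearest genes, each a description over 4 groups that share a wild type. ANXA1 was most like GPAT3 (r = 0.986), CRHR1 (0.985) and EIF4EBP1 (0.983), and CRHR1 was also among the nearest to KRT18 (0.988). ANXA2 was most like RPSA and CDH11 (0.995 each), then RND1 (0.989), and KRT19 like ACTG1 (0.989), SLC25A30 (0.986) and DCTPP1 (0.986). TGM1 was most like SPSB3 (0.997), LDOC1 (0.996) and FAM222A (0.996). FXYD3 had RESP18 (0.991), CNTNAP1 (0.989) and PARK7 (0.987). After KRT18, KRT8 had ANGPTL4 (0.986) and ACVR1 (0.984), and KRT18 had HMOX2 (0.990). Between the members, KRT8 and ANXA1 correlated at 0.973 and KRT19 and ANXA2 at 0.979, while TGM1 correlated with FXYD3 at 0.777 and with KRT8 at -0.28.

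Added up, the members present in each table made a larger share of TPM in the knockout. They summed to 7438 to 9846 TPM in the knockout libraries, 2583 to 2769.6 TPM with OTX2 overexpression, 1366 to 1409 TPM with LEUTX overexpression and 2378 to 2468 TPM in wild type. KRT8 was the largest single contributor in every pEPSC library, so these sums mostly follow the keratins.

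Related genes outside the named set were counted from lists, again with limma's adjusted p. Calls were frequent in every comparison: 48.9% of all genes tested rose and 33.5% fell with OTX2 overexpression, 14.9% and 22.3% in the knockout, 41.6% and 28.1% with LEUTX overexpression, and 21.5% and 7.93% in embryos. The median change over all genes was 0.20, -0.11, 0.11 and 0.28 in the same order. A gene under 1 TPM in every library of 1 group passed the filter through the other group and could differ in 1 direction only, so counts without such genes are given where a list held any. Beside the simple-epithelial keratins, KRT10 alone of 47 other keratins was in the pEPSC tables. It rose with OTX2 overexpression, to 9.27, 11.9 and 10.1 TPM against 7.16, 5.07 and 7.78 TPM in wild type (log2 fold change 0.58, adjusted p = 0.00384; 0.0562 with quantile normalization). In the knockout its call (log2 fold change 0.64, adjusted p = 0.0289; log2 fold change 0.62 without library 1) was lost when any 1 library other than knockout library 1 was left out (0.0501 to 0.0990). KRT82, a hair keratin outside the list and chosen after its values were seen, had 7.09, 5.97 and 6.32 TPM with OTX2 overexpression and was listed at 0 in wild type.

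**Figure D4:**
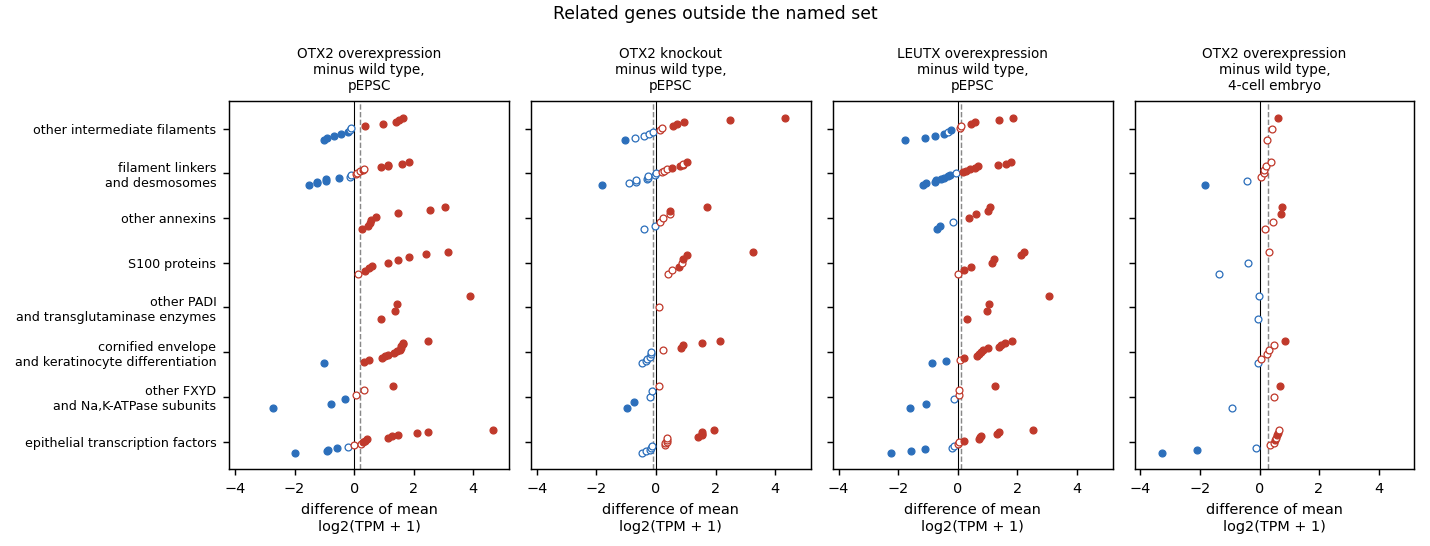
Each point is the difference of mean log2(TPM + 1) from wild type of 1 related gene, by list and comparison; red points are above 0 and blue below, filled where limma's adjusted p was under 0.05, and the dashed line is the median of all genes tested. The annexin, S100, PADI and transglutaminase and cornified-envelope lists lie mostly to the right with OTX2 overexpression, and ATP1B1 is the lowest point of the FXYD and Na,K-ATPase list in all 3 pEPSC panels.

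Filaments and junctions that work beside keratins showed calls in both directions. Of 12 other intermediate filaments tested, 5 rose and 5 fell with OTX2 overexpression (median -0.13), 5 rose and 1 fell in the knockout (0.16; 4 and 2 of 11 without library 1) and 4 rose and 5 fell with LEUTX overexpression (-0.08). Without the genes that passed through 1 group, these counts were 3 and 5 of 10, 4 and 1 of 11, and 3 and 5 of 11. In the knockout the neurofilament NEFM reached 29.4, 40.9 and 56.4 TPM, against 1.13, 0.930 and 1.15 TPM in wild type (log2 fold change 4.34, adjusted p = 0.000113; log2 fold change 4.57 without library 1). Vimentin (VIM), the filament of mesenchymal and many cultured cells, fell with LEUTX overexpression to 27.5, 25.7 and 23.0 TPM, against 85.4, 90.8 and 91.2 TPM (log2 fold change -1.77, adjusted p = 6.05e-08). Desmoplakin (DSP), which ties keratin filaments to desmosomes, fell in the knockout to 37.6, 96.7 and 104 TPM, against 258, 239.6 and 282 TPM (log2 fold change -1.83, adjusted p = 0.00886; log2 fold change -1.36 without library 1), where KRT8 and KRT18 were highest. Of the linker and desmosome genes, 4 of 17 rose and 1 fell in the knockout (9 and 4 without library 1), 6 of 18 rose and 6 fell with OTX2 overexpression (5 and 6 of 17 without EVPL, which passed through 1 group), and 8 of 17 rose and 8 fell with LEUTX overexpression.

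Other annexins, and S100 proteins, several of which bind annexins, rose more often than they fell. With OTX2 overexpression all 8 other annexins tested rose (median 0.66; 6 with quantile normalization; 7 of 7 without ANXA10, which passed through 1 group), where ANXA2 was lower and ANXA1 overlapped wild type. ANXA5, the phosphatidylserine binder used to stain dying cells, reached 55.1, 52.4 and 58.8 TPM, against 8.35, 9.60 and 7.81 TPM in wild type (log2 fold change 2.56, adjusted p = 3.18e-09). It also rose in the knockout (log2 fold change 1.70, adjusted p = 0.000573; log2 fold change 1.77 without library 1), where 2 of 7 rose (5 rose and 1 fell without library 1, and 1 rose at the fewest without another library), and with LEUTX overexpression (log2 fold change 1.09, adjusted p = 8.69e-06), where 4 of 7 rose and 2 fell (3 and 3 with quantile normalization). Of the S100 proteins, 6 of 7 rose with OTX2 overexpression (median 0.59), beside S100A9 and S100B, which passed the filter through the overexpressing libraries alone, 4 of 7 in the knockout (0.87; 7 of 7 without library 1) and 6 of 7 with LEUTX overexpression (1.15), and none fell except 1 with OTX2 overexpression under quantile normalization. S100A6 had 37.5, 38.2 and 48.3 TPM in the knockout (log2 fold change 3.25, adjusted p = 0.000165; log2 fold change 3.31 without library 1) and 38.0, 31.8 and 46.3 TPM with OTX2 overexpression (log2 fold change 3.15, adjusted p = 1.16e-07), against 4.72, 3.10 and 2.71 TPM in wild type.

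**Figure D5:**
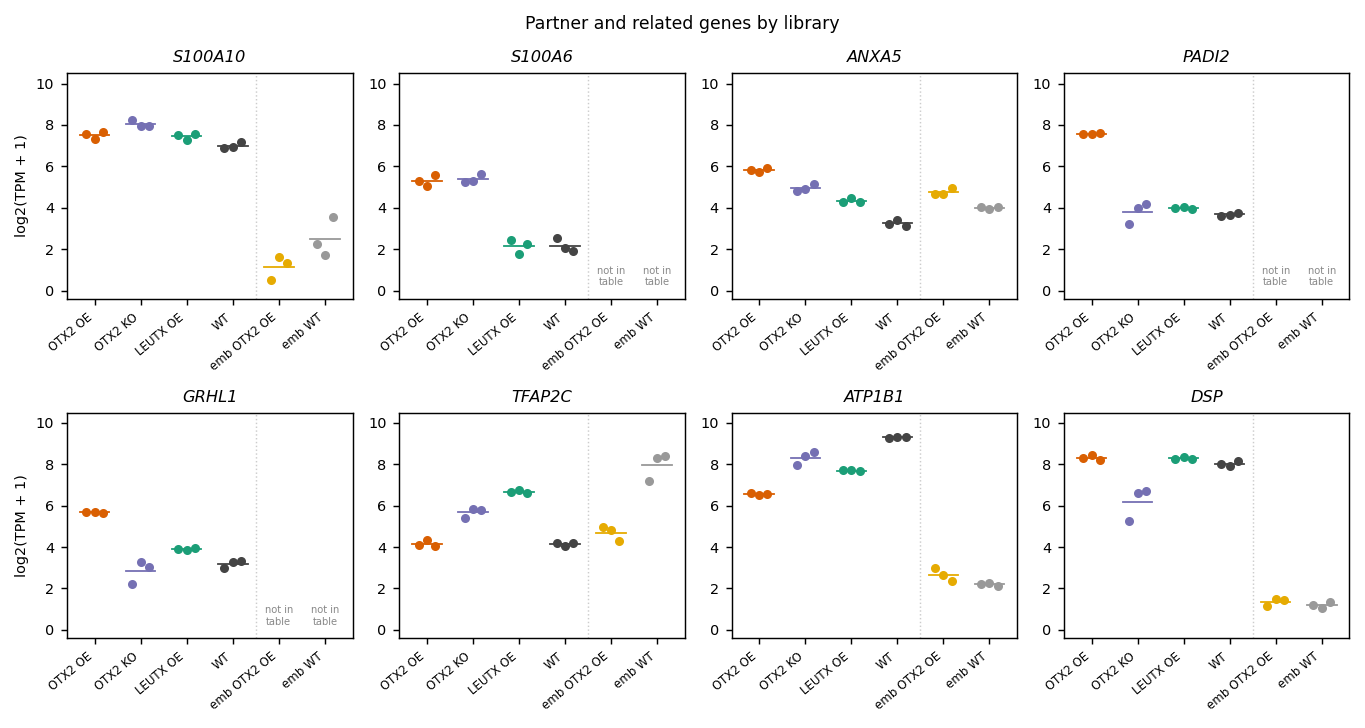
Each panel plots log2(TPM + 1) of 1 partner or related gene in every library (points) of the 6 groups, with the group mean as a line; emb marks 4-cell embryos and "not in table" a gene absent from that group's table. S100A10 does not share the LEUTX decrease of ANXA2, PADI2 and GRHL1 are highest with OTX2 overexpression, DSP is lowest among pEPSCs in the OTX2 knockout, and ATP1B1 is highest in wild-type pEPSCs.

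PADI2, a relative of PADI3, rose with OTX2 overexpression as well. It reached 187, 188 and 194 TPM, against 11.2, 11.6 and 12.6 TPM in wild type (log2 fold change 3.90, adjusted p = 4.15e-11). The other 3 of the list's 4 genes tested, PADI1, TGM2 and F13A1, lie below 1 TPM in wild type and passed the filter through the overexpressing libraries alone, with either factor, which leaves PADI2 as 1 of 1. PADI2 itself was not called with LEUTX overexpression under quantile normalization or in the fit over 12 libraries (adjusted p 0.197 to 0.373). In the knockout PADI2 was the one tested and was not called (adjusted p = 0.745), though it was without library 1. Of 45 genes of the cornified envelope and keratinocyte differentiation, 14 were in the OTX2 overexpression table. CST6, ALOXE3, CNFN and GRHL3 passed the filter there through the overexpressing libraries alone, and of the other 10, 9 rose and 1 fell (median 1.24). GRHL1, a grainyhead-like transcription factor of the epidermis, led them at 50.2, 51.2 and 49.2 TPM, against 6.93, 8.75 and 8.91 TPM (log2 fold change 2.48, adjusted p = 5.78e-09). With LEUTX overexpression 7 of 10 rose and 2 fell (0.68), leaving out 3 that passed through 1 group. In the knockout 2 of 9 rose and none fell (-0.17), leaving out CST6 and GRHL3 for the same reason.

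Of the Na,K-ATPase that FXYD proteins regulate, the beta 1 subunit fell in all 3 pEPSC comparisons. ATP1B1 fell to 97.6, 90.3 and 93.6 TPM with OTX2 overexpression (log2 fold change -2.73, adjusted p = 4.15e-11), to 249, 336 and 385 TPM in the knockout (log2 fold change -0.98, adjusted p = 0.00399; log2 fold change -0.81 without library 1) and to 208, 208 and 201 TPM with LEUTX overexpression (log2 fold change -1.61, adjusted p = 1.27e-09), against 619, 642 and 629 TPM in wild type. Over the list of other FXYD and Na,K-ATPase genes, 1 of 6 rose and 3 fell with OTX2 overexpression (median -0.13), none of 5 rose and 2 fell in the knockout (-0.21), and 1 of 6 rose and 2 fell with LEUTX overexpression (-0.04; 1 and 4 with quantile normalization). The counts in the knockout were the same without library 1, and the increase with either overexpression was of a gene that passed through 1 group.

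Of the epithelial and trophoblast transcription factors, 9 of 16 rose and 4 fell with OTX2 overexpression (median 0.33), 5 of 15 rose and none fell in the knockout (0.36; 9 higher and 1 lower of 14 without library 1), and 7 of 14 rose and 3 fell with LEUTX overexpression (0.13). Without the genes that passed through 1 group, these counts were 7 and 4 of 14, 4 and none of 14, and 6 and 3 of 13. TFAP2C, a factor of trophectoderm and germ cells, rose in the knockout, where KRT8 and KRT18 were highest (log2 fold change 1.55, adjusted p = 0.000910; log2 fold change 1.69 without library 1), and also with LEUTX overexpression, where they were lowest (log2 fold change 2.53, adjusted p = 7.02e-09). In OTX2-overexpressing embryos it fell to 30.5, 27.1 and 18.9 TPM, against 144, 317 and 341 TPM in wild-type embryos (log2 fold change -3.27, adjusted p = 0.000732). Of the other related genes in embryos, ANXA5 rose (log2 fold change 0.76, adjusted p = 0.00729; 0.0547 with median-ratio scaling) and the desmosomal cadherin DSG1 fell (log2 fold change -1.85, adjusted p = 0.00166). By list the embryo calls were 2 higher of 4 annexins, 1 of 6 cornified-envelope genes, 1 of 3 FXYD and Na,K-ATPase genes, 1 of 3 intermediate filaments, 3 higher and 2 lower of 10 transcription factors, 1 lower of 7 linkers and desmosome genes, and none of 3 S100 or 2 PADI genes. With median-ratio scaling each of these higher counts was 0.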

How the data were processed

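The series holds 35 samples, of which 18 RNA libraries (12 of pEPSCs, 6 of 4-cell embryos) were used and 17 were not used here. Groups were taken from the sample titles. The authors deposited 4 tables with 1 TPM value per gene and library, and read depth cannot be recovered from TPM, so no interval or detection floor is given and a 0 is reported as listed at 0. Per the submitters' processing notes, the tools included Trim Galore 0.6.6, STAR 2.7.3, StringTie 2.1.4 and featureCounts 2.0.0, with no role given, and the build Sscrofa11.1; how the TPM values were made is not given in the sources used here. Positions are those of NCBI RefSeq for Sscrofa11.1, in which KRT7 is annotated as a long non-coding RNA. No sequence is shown.

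Each table was fitted alone as log2(TPM + 1), on which folds of genes at a few TPM come out too small, over the genes that reached 1 TPM in 3 or more libraries: 13272, 12255, 12570 and 8550 genes for OTX2 overexpression, OTX2 knockout, LEUTX overexpression and embryos. The fit was limma 3.58.1 (trended and robust empirical Bayes, statmod 1.5.0, R 4.3.3) of the modified group against wild type, checked on simulated data, with Benjamini-Hochberg adjustment over all genes tested and a threshold of 0.05. Tables were handled with pandas 2.3.3 and numpy 2.4.6 and drawn with matplotlib 3.10.9. The TPM values were not scaled further in this main fit, and differences were taken within tables.

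The members and the 9 lists of related genes were chosen with earlier results of these data known. Named list genes follow a rule: up to 3 per list and comparison with the largest absolute change among those called with a mean of at least 5 TPM in the higher group, of which a subset is printed, and the 3 genes most correlated with each member. Alternatives were no filter, a pseudocount of 0.1, median-ratio scaling, quantile normalization, a fit over the 12 pEPSC libraries, the replicate number as a block and each library left out in turn. Entries whose gene symbol reads as a date, 10 in number and all from the embryos, could not be assigned to a gene. A gene of the lists is not reported here and is left out of their counts.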

Additional observations from a re-analysis of the deposited data

Results flagged for a closer look

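OTX2 overexpression was set against wild type in both pEPSCs and 4-cell embryos, and ATP1B1, the beta 1 subunit of the Na,K-ATPase, the pump that FXYD proteins regulate, moved in opposite directions. It differed by -2.73 on the log2(TPM + 1) scale in pEPSCs and by 0.48 in embryos, with all 3 OTX2-overexpressing libraries below wild type in pEPSCs and all 3 above it in embryos. Over all genes tested, 34.2% were below in this way in pEPSCs and 38.9% above in embryos. The median difference over all genes in embryos was 0.28. In the embryo ATP1B1 did not pass (limma adjusted p 0.0932), and the difference between pEPSCs and embryos itself was not tested. No member showed opposite, non-overlapping changes in the 2 settings.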

How the results depend on the processing

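The number of genes past the threshold was 10935 with OTX2 overexpression, 4552 in the knockout, 8761 with LEUTX overexpression and 2513 in embryos. In embryos it was 1142 with median-ratio scaling (294 higher, 848 lower), 1366 with quantile normalization (611 higher, 755 lower) and 1619 with the replicate block, and 849 to 2844 when 1 library was left out (849 and 1255 without wild-type library 2 or 3, 871 and 1367 without OTX2-overexpressing library 2 or 3). In the knockout it was 2055 to 7706 when 1 library was left out, the highest without knockout library 1 and the lowest without wild-type library 1 (2055), 2 (2280.0) or 3 (2421). The cause of these moves was not tested. Median-ratio scaling moved the median change of all genes to 0.02 with OTX2 overexpression, 0.00 in the knockout, 0.01 with LEUTX overexpression and 0.02 in embryos, from 0.20, -0.11, 0.11 and 0.28. It moved the split to 5598 higher and 5387 lower with OTX2 overexpression (6485 and 4450 without it), 2963 and 2880.0 in the knockout (1820.0 and 2732) and 4471 and 4495 with LEUTX overexpression (5233 and 3528); quantile normalization gave 5207 and 5734, 2984 and 3048, and 4183 and 4740.0. With the replicate block 10634 genes passed with OTX2 overexpression and 8163 with LEUTX overexpression. Same-numbered libraries did not deviate together from their group means (r from -0.21 to 0.07). With 3 libraries per group this cannot show whether the numbers pair samples, which the labels do not say. The knockout columns, numbered 1, 3 and 4, do not match the sample titles, so no block was fitted there. Of 296 recomputed member differences, none reversed a separation: 266 moved by less than the spread between replicates and 30 by more. The sign differed only where groups overlapped, for KRT18 (-0.08 with median-ratio scaling) and ANXA1 (-0.16 to 0.24) with OTX2 overexpression and for ANXA2 (-0.29 to 0.14) in embryos. With a pseudocount of 0.1 the low genes gave larger differences, up to 7.57 for PADI3 with OTX2 overexpression and -6.46 for ANXA1 with LEUTX overexpression. Of 867 recomputed changes of named list genes, 54 no longer passed. Read depth is unknown, so how far it limits PADI3, FXYD4 and ANXA1 near 0 TPM cannot be given.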
